A study of Mus musculus with 17 samples.

Results

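The genes described here are 8 cyclic nucleotide phosphodiesterases that break down cyclic AMP: Pde3a, Pde3b, Pde4a, Pde4b, Pde4d, Pde7b, Pde8a and Pde10a. They were taken by symbol from a table of 25198 genes, and all 8 were in it. The samples were ovarian follicles of CD1 mice aged 16 days, grown to the antral stage for 8 days in eIVFG, an encapsulated culture of whole follicles, with 3 follicles in each sample per the labels. Control samples (n = 11) and samples exposed to Tyrphostin-AG1478, an inhibitor of the EGF receptor kinase (n = 6), came in 2 batches: batch 1 held 6 Control and 3 Tyrphostin libraries, batch 2 held 5 and 3. The labels give 10 µM of the inhibitor in DMSO with hCG, a hormone that acts on the LH receptor and sets off ovulation, for 4 h. They give this text for Control samples too, so whether Control follicles received hCG and vehicle is not stated. The 11 Control libraries fall into 5 numbered sets, and nothing says whether libraries came from separate animals or cultures, so p-values measure only the spread between these samples.

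Cyclic AMP is the main messenger of the LH receptor in the granulosa cells that line the follicle, and its level depends both on the cyclases that make it and on the phosphodiesterases that hydrolyse it. The PDE4 and PDE7 enzymes are specific for cyclic AMP, PDE8 enzymes bind it with very high affinity, and PDE3 and PDE10 enzymes also accept cyclic GMP. In the ovary PDE4 enzymes are known from granulosa cells, and PDE3A is the enzyme of the oocyte, where a fall in cyclic AMP lets meiosis resume. Long forms of PDE4 are phosphorylated by protein kinase A and by ERK, which acts downstream of the EGF receptor.

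The stretches just before annotated transcription starts of the members that rose in the comparison below are shown first, followed by the starts of Pde8a and Pde4b that hold the core of a cyclic AMP response element. The sequences are 250 bases each, read from 5′ to 3′, from RefSeq on GRCm38.p6. Capitals mark matches to TGACG or its reverse complement CGTCA.
Pde7b upstream of the start, chr10:20548329-20548578, minus strand: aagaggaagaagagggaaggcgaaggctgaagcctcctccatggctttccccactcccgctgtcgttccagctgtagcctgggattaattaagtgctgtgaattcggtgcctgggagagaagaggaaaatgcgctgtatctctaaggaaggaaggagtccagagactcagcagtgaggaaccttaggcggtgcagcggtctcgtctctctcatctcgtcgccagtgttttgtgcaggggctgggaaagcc
Pde10a upstream of the start, chr17:8801495-8801744, plus strand: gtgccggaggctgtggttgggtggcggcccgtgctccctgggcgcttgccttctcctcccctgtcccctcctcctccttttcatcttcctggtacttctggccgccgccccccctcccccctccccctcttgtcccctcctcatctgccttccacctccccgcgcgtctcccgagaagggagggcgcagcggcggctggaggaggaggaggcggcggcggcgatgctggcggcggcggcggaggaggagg
Pde10a upstream of the start, chr17:8849735-8849984, plus strand: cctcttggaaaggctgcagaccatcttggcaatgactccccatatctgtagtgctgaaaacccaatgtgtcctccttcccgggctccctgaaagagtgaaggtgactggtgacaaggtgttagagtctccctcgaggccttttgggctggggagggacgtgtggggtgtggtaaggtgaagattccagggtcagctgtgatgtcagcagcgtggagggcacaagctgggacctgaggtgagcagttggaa
Pde8a upstream of the start, chr7:81213015-81213264, plus strand: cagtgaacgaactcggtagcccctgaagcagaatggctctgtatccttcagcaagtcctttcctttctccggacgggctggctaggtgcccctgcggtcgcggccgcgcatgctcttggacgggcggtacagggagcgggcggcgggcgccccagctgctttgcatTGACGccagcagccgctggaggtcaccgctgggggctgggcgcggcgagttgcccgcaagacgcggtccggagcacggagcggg
Pde4b upstream of the start, chr4:102421305-102421554, plus strand: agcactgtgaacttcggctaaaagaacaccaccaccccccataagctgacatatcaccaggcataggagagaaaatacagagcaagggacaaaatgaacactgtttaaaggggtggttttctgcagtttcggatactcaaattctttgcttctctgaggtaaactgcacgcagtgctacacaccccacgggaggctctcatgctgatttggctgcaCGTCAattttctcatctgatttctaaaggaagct
Starts were listed for 6 members, 12 starts in all, and none were listed for Pde3a and Pde3b. The full element TGACGTCA was in 0 of the 12 windows, against 1.55% of 32851 windows of the same length before all listed starts. The core TGACG, which every full element contains, was in 3 of 12 windows on either strand (of Pde4a, Pde4b and Pde8a), against 17.8% of all windows. The AP-1 motif TGANTCA, which shares its first 3 letters with the core, was in 0 of 12, against 6.75%. The windows of Pde7b and of both Pde10a starts held none of these letters, and this says nothing about binding of the factors. The Pde10a window that starts at base 8801495 was 72.8% G and C, that of Pde7b 55.2%. In the GENCODE M21 annotation of GRCm38, Pde7b spans chr10:20398004-20725078 on the minus strand and Pde10a chr17:8525372-8986648 on the plus strand. The starts shown for Pde7b and Pde10a thus lie inside the annotated genes, which have 8 and 14 annotated transcripts.

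Depth ran from 1820545 to 8291024 counts per library. Values are CPM, library-size normalised counts scaled by TMM factors (a scaling that sets the typical gene to the same level in every library). Levels of different phosphodiesterases are compared only as CPM per kilobase of annotated exon. Marker genes and their sums are in CPM, which is not corrected for gene length. The follicle label was checked against marker genes. The granulosa inhibin subunit Inha made 38520 to 52460 CPM of Control and 33800 to 49790 CPM of Tyrphostin libraries, while Foxl2 reached at most 4.64 CPM and Amh at most 1.07 CPM and 0 counts in batch 1 Control libraries. All 12 oocyte markers had counts in both groups (Figla had none in batch 2 Control libraries), with a summed level of 28.5 to 190 CPM in Control and 33.3 to 293 CPM in Tyrphostin libraries.

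Of the 8 members, 5 had enough counts to be tested, and 2 of these, Pde7b and Pde10a, were higher in Tyrphostin than in Control libraries (edgeR quasi-likelihood test with batch as a term, adjusted p under 0.05). Among all 9603 genes tested 10.6% were called, 4.35% as higher and 6.25% as lower (418 higher and 600 lower, or 715 and 396 with total-count scaling). The direction of each of the 5 members was the same under every scaling tried. No member was called lower. At an unadjusted p under 0.05 edgeR gave 1 lower member, Pde4d, and DESeq2 and limma-voom each called 0 lower after adjustment. In bulk follicles, a change in the number of cells of a type and a change in RNA per cell cannot be told apart.

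**Figure D1:**
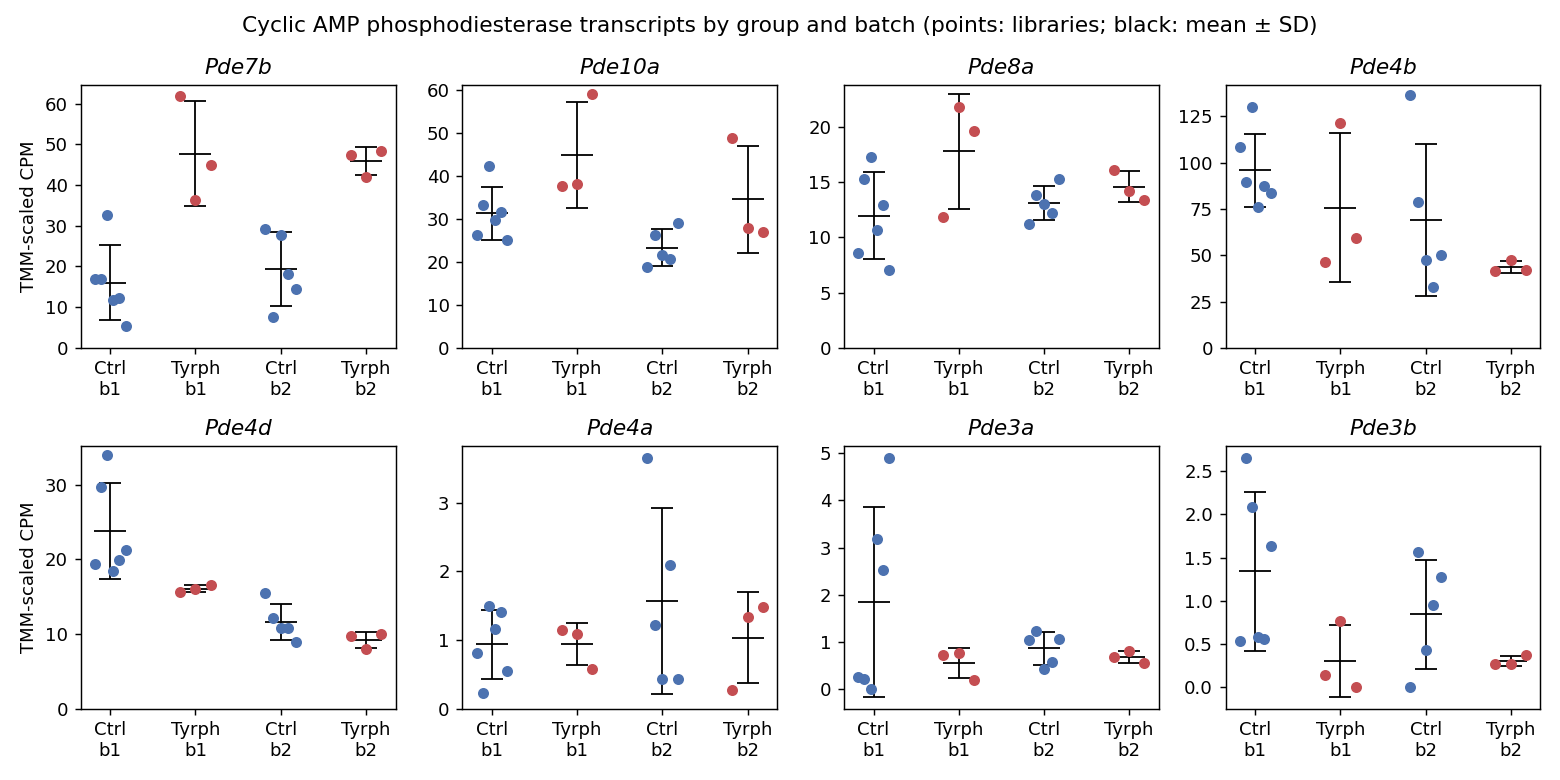
TMM-scaled CPM (vertical axes, linear) of the 8 phosphodiesterases in 17 libraries, by group and batch (b1, b2); points are libraries and black marks the mean ± SD. Pde7b is the member whose 6 Tyrphostin libraries all lie above all 11 Control libraries, and Pde4d is lower in batch 2 than in batch 1.

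Pde7b, a phosphodiesterase specific for cyclic AMP, changed most. In Control libraries it ran from 5.45 CPM (Control 6) through a median of 16.8 CPM to 32.8 CPM (Control 3), with 10 to 112 counts per library. In Tyrphostin libraries it was at 61.8, 36.4 and 45.1 CPM in batch 1 and at 47.5, 42.1 and 48.3 CPM in batch 2, with 157 to 432 counts. All 6 Tyrphostin libraries exceeded all 11 Control libraries, a separation in this direction that 0.510% of the genes tested showed (1.51% in either direction). The means were 17.6 CPM ± 8.87 (SD, n = 11) and 46.9 CPM ± 8.51 (SD, n = 6). The log2 fold change was 1.42 ± 0.27 (SE; edgeR adjusted p = 0.00122), a 2.67-fold rise, which had rank 51 from the top among the signed fold changes of the 9603 genes tested and rank 218 by p. The direction and the call held in 10 of 10 alternative analyses, with adjusted p from 4.46e-05 to 0.0268, and in 17 of 17 omissions of a library.

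Pde7b was higher in all 3 Tyrphostin libraries than in every Control library of the same batch, in both batches, as 5.01% of the genes tested in batch 1 and 4.17% of those in batch 2 were. Within batch 1 the log2 fold change was 1.56 ± 0.35 (SE; edgeR adjusted p = 0.0111), and it was the only one of 5 members called there, where 6.73% of 9423 genes were called (2.94% higher, 3.79% lower). The batch 1 call was lost without Tyrphostin 1 (adjusted p = 0.0596). Within batch 2 the log2 fold change was 1.27 ± 0.36 (SE; edgeR adjusted p = 0.148), in a comparison that called 0.621% of 9830 genes and 0 of 5 members. In batch 2 edgeR gave 1 member, Pde7b, at an unadjusted p under 0.05 (p = 0.00388 by edgeR's model), and DESeq2 called 0. Without Control 7 the batch 2 value was 1.49 (edgeR adjusted p = 0.0474), and with no filter 1.28 (edgeR adjusted p = 0.00762). The difference between batches in the effect was -0.28 ± 0.56 (SE; edgeR adjusted p = 1).

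Pde10a, which hydrolyses cyclic AMP and cyclic GMP, rose less. Control libraries ran from 18.8 through a median of 26.3 to 42.3 CPM. The Tyrphostin libraries were at 37.6, 38.1 and 59.2 CPM in batch 1 and at 48.9, 27.9 and 26.9 CPM in batch 2. The groups overlapped: 2 Tyrphostin libraries, Tyrphostin 3 and Tyrphostin 4, were above every Control library. The means were 27.7 CPM ± 6.63 (SD, n = 11) and 39.8 CPM ± 12.5 (SD, n = 6), a 1.45-fold rise, or 0.54 ± 0.17 on the log2 scale (SE; edgeR adjusted p = 0.0403). Within batches the log2 fold changes were 0.52 ± 0.23 and 0.57 ± 0.26 (SE; edgeR adjusted p = 0.199 and 0.471). The call lay at the threshold: it was lost in 4 of 10 alternatives and in 9 of 17 omissions of a library, with adjusted p of up to 0.371 and 0.14. The alternatives were no filter (adjusted p = 0.0552), no batch term (0.115), Control libraries summed by set (0.107) and the block on replicate number (0.371). That block used only Control 1 to 6 and Tyrphostin 1 to 6. The libraries whose omission ended the call were Control 1, 2, 4, 5, 6, 9 and 10 (adjusted p = 0.0518 to 0.0638) and Tyrphostin 3 and 4 (0.137 and 0.14). Without Tyrphostin 4 the log2 fold change was 0.41, and without Tyrphostin 3 it was 0.44.

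Pde8a, the high-affinity cyclic AMP phosphodiesterase, did not pass the test. It ran from 7.08 through a median of 12.9 to 17.3 CPM in Control libraries. In Tyrphostin libraries it was at 11.9, 21.8 and 19.6 CPM in batch 1 and at 16.1, 14.2 and 13.4 CPM in batch 2. Tyrphostin 2 and Tyrphostin 3 were above every Control library and the other 4 lay among them. The log2 fold change was 0.36 ± 0.19 (SE; edgeR adjusted p = 0.262), with a 95% interval (normal approximation) from -0.01 to 0.74.

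Pde4b and Pde4d, the cyclic AMP enzymes known from granulosa cells, had lower values in most Tyrphostin libraries, and neither difference passed the test. Pde4b was at 32.6 to 137 CPM (median 83.4) in Control libraries. It was at 46.4, 121 and 59.4 CPM in the Tyrphostin libraries of batch 1 and at 41.5, 47.4 and 41.8 CPM in those of batch 2. Tyrphostin 2, at 121 CPM, stood apart from the other 5. The log2 fold change of Pde4b was -0.49 ± 0.25 (SE; edgeR adjusted p = 0.241) and, without Tyrphostin 2, -0.75 (edgeR adjusted p = 0.068). Without Control 7, the highest Control library at 137 CPM, it was -0.31 (edgeR adjusted p = 0.347).

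Pde4d was at 8.93 to 34.0 CPM (median 18.5) in Control libraries. It was at 15.6, 16.1 and 16.5 CPM in the Tyrphostin libraries of batch 1, below all 6 Control libraries of that batch (18.5 to 34.0 CPM), as 6.45% of the 9423 genes tested there were. In batch 2 it was at 9.70, 8.04 and 10.0 CPM, where 1 of 3, Tyrphostin 5, was below all 5 Control libraries (8.93 to 15.4 CPM). The log2 fold change over all libraries was -0.45 ± 0.18 (SE; edgeR adjusted p = 0.106), with a 95% interval from -0.80 to -0.11. Within batches it was -0.56 ± 0.25 and -0.32 ± 0.26 (SE; edgeR adjusted p = 0.209 and 0.76). No alternative brought Pde4b or Pde4d past the threshold, with lowest adjusted p of 0.215 and 0.064, and both log2 fold changes stayed negative in every alternative and omission over all libraries.

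**Figure D2:**
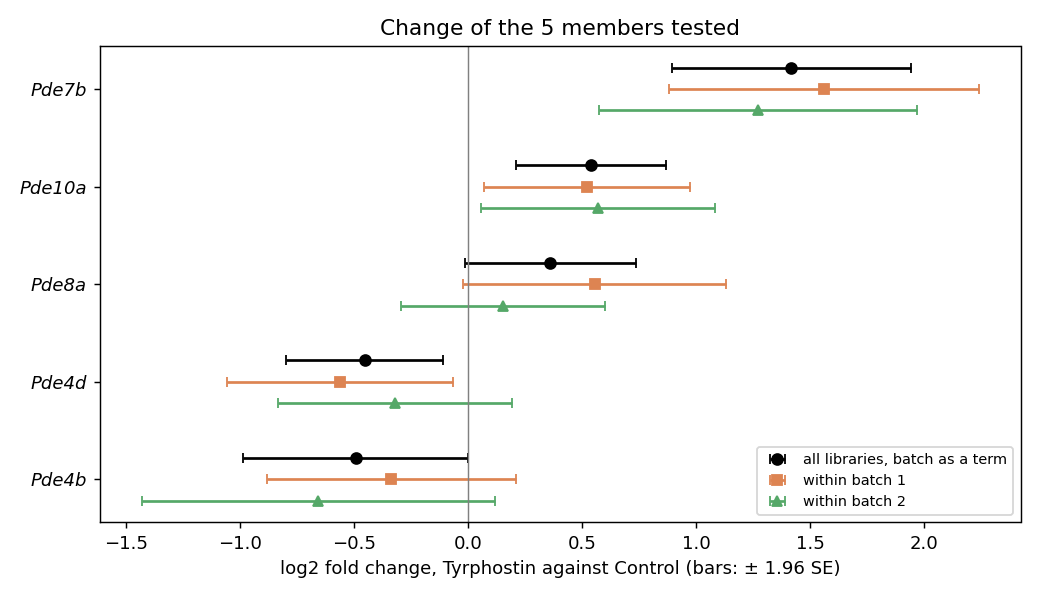
Log2 fold change of Tyrphostin against Control libraries (horizontal axis; bars are 95% intervals from the SE) for the 5 members tested, over all 17 libraries and within each batch. The intervals of Pde7b (log2 fold change 1.42 over all libraries) and Pde10a (0.54) lie above 0 in all 3 fits by the normal approximation. They are not adjusted for the number of genes tested, and the edgeR test of Pde10a in batch 2 gave an unadjusted p of 0.0513. The interval of Pde4d lies below 0 over all libraries (-0.80 to -0.11) and in batch 1 (-1.06 to -0.06), with no call after adjustment, and includes 0 in batch 2. Those of Pde8a and Pde4b include 0 in all 3 fits.

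Pde3a, Pde3b and Pde4a were below the filter on low counts in every comparison. Pde3a, the oocyte enzyme, had 0 to 11 counts in Control and 1 to 5 counts in Tyrphostin libraries, or at most 4.90 and 0.804 CPM. Its highest values were in Control 4, Control 5 and Control 6, the libraries of 1 control set of batch 1, at 3.18, 2.53 and 4.90 CPM, against 0 to 0.269 CPM in the other 3 Control libraries of that batch. The summed oocyte markers in the same 3 libraries were 53.2, 75.0 and 85.5 CPM, against 28.5 to 43.6 CPM in the other 3 of batch 1. Higher oocyte sums were in Control 7, 8, 10 and 11 and Tyrphostin 5 and 6, at 190, 142, 120, 92.7, 155 and 293 CPM. There Pde3a was at 1.05, 1.23, 0.572, 1.06, 0.804 and 0.557 CPM, from 3 to 11 counts in a library. Whether oocyte RNA had a part in the Pde3a values was not tested.

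Pde3b had 0 to 14 counts in Control and 0 to 5 in Tyrphostin libraries, with means of 1.12 CPM ± 0.805 (SD, n = 11) and 0.305 CPM ± 0.263 (SD, n = 6). Pde4a had 1 to 14 and 2 to 8 counts. A floor of 3 counts is 0.334 to 1.63 CPM in Control and 0.41 to 0.804 CPM in Tyrphostin libraries, so most values of these 3 genes lay near it. Without the filter their log2 fold changes were -0.93 (Pde3a), -1.73 (Pde3b) and -0.27 (Pde4a), with edgeR adjusted p of 0.468, 0.167 and 0.866. No difference was detected at these low counts.

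Per kilobase of all annotated exons joined, Pde4b led in both groups. In Control libraries the mean levels were 7.92 CPM per kilobase for Pde4b, 3.09 for Pde8a, 2.16 for Pde10a, 1.52 for Pde4d and 1.41 for Pde7b, then 0.16, 0.122 and 0.11 for Pde4a, Pde3b and Pde3a. Pde4b was above Pde8a in 11 of 11 Control libraries and Pde8a above Pde10a in 10, but Pde4d was above Pde7b in only 7. In Tyrphostin libraries Pde7b came after Pde8a: means were 5.65 for Pde4b, 4.00 for Pde8a, 3.77 for Pde7b, 3.1 for Pde10a and 1.05 for Pde4d. Neighbours among the first 4 overlapped in range there, with Pde8a above Pde7b in 4 of 6 libraries, while Pde10a was above Pde4d in 6 of 6 without overlap.

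Pde7b levels per kilobase were 0.0555 to 0.494 of those of Pde4b in Control libraries. In Tyrphostin libraries this ratio was 1.13, 0.254 and 0.643 in batch 1 and 0.971, 0.753 and 0.981 in batch 2. The ratio of Tyrphostin 2, the library with high Pde4b, lay within the Control range, and the other 5 were above it. Pde4b held 34.9% ± 9.19 (SD, n = 11) of the summed level of all 24 phosphodiesterase genes in Control libraries, against 21.1% ± 7.12 (SD, n = 6) in Tyrphostin libraries, and Pde7b 6.36% ± 3.09 and 14.9% ± 3.94. The sum itself was 22.1 ± 4.29 (SD, n = 11) and 25.9 CPM per kilobase ± 3.76 (SD, n = 6). Pde6d, not a catalytic enzyme, held 12.3% of the sum in Control and 17.4% in Tyrphostin libraries. In Tyrphostin libraries of batch 2 it held 22.3%, above Pde4b at 16.9%. Without Pde6d, Pde6g and Pde6h, Pde4b held 39.7% and 25.25% in Control and Tyrphostin libraries, and Pde7b 7.34% and 18.4%. That sum was 19.4 and 21.5 CPM per kilobase. All these shares describe the libraries and were not tested. They also depend on the lengths used: with the longest transcript of each gene, Pde4b held 44.0% and 28% and Pde8a 7.95% and 8.88%, in place of 14.2% and 15.3% for Pde8a. The order then turned: Pde8a was behind Pde4d (9.95%) and Pde10a (8.52%) in Control libraries, and behind Pde7b (18.8%) and Pde10a (10.8%) in Tyrphostin libraries. Among the members Pde4b led with either length.

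**Figure D3:**
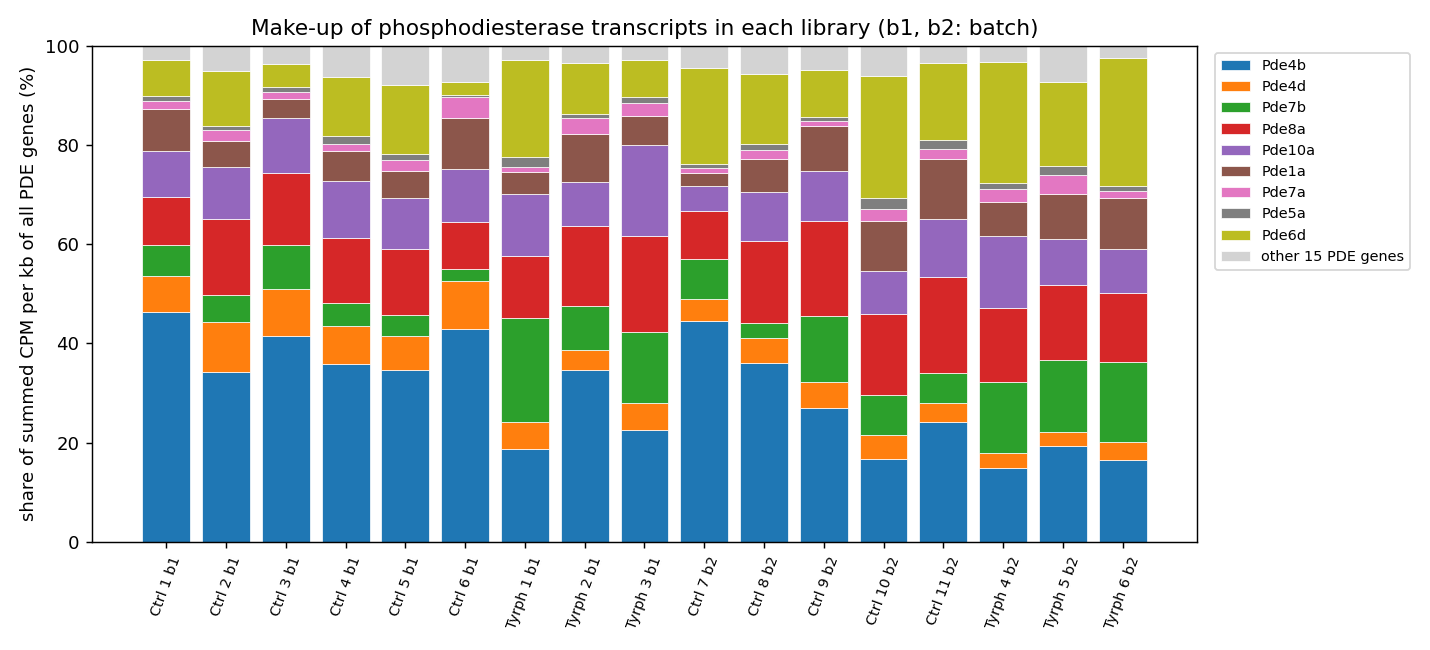
Share (vertical axis, %) of each phosphodiesterase gene in the summed CPM per kilobase of 24 phosphodiesterase genes, 1 bar per library, with batch 1 on the left. The Pde7b segment averages 6.36% in Control and 14.9% in Tyrphostin libraries; Pde6d, a carrier of lipid-modified proteins and not a catalytic enzyme, is drawn since its symbol belongs to the family.

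Control libraries of the 2 batches were compared to see how stable their levels were between batches. Pde4d was the only one of 5 members tested that differed, with 14.0% of 6680 genes called (7.26% higher and 6.77% lower in batch 2). It was at 18.5 to 34.0 CPM in the 6 Control libraries of batch 1 and at 8.93 to 15.4 CPM in the 5 of batch 2, with no overlap, a separation in this direction shown by 4.78% of the genes tested. The log2 difference was -1.01 ± 0.23 (SE; edgeR adjusted p = 0.00878) and was called in each of 4 alternatives and 11 omissions of a library. Pde4b differed by -0.46 ± 0.29 (SE; edgeR adjusted p = 0.309), or by -0.83 without Control 7 (edgeR adjusted p = 0.0234). The summed levels of 4 ovulatory genes (Has2, Ptgs2, Tnfaip6 and Ptx3) were 13800 to 24900 CPM in batch 1 Control libraries and 6440 to 10400 CPM in batch 2. The theca and stroma markers were 268 to 763 CPM in batch 1 and 443 to 2160 CPM in batch 2. Of 8 of them tested, 3 were called higher and 1, Acta2, lower in batch 2. In batch 1 and batch 2 the sums were 28.5 to 85.5 and 37.2 to 190 CPM for oocyte markers and 18.6 to 61.5 and 54.0 to 460 CPM for immune markers. Endothelial markers were 11.3 to 88.4 and 8.51 to 21.7 CPM, and granulosa markers 39700 to 52600 and 38800 to 51200 CPM. The part of any of these cell types in the Pde4d difference was not tested.

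The difference between Tyrphostin and Control libraries in the members did not vary detectably between batches. Of the 5 members tested for an interaction, 0 were called, 0 had an unadjusted p under 0.05 and DESeq2 called 0, in a fit that called 0% of 9603 genes. The interval of the difference was wide, from -1.38 to 0.81 on the log2 scale for Pde7b and from -0.63 to 0.74 for Pde10a.

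Markers of cell types differed between the groups in part. All 4 ovulatory genes fell, from a summed 6440 to 24900 CPM in Control to 960 to 4870 CPM in Tyrphostin libraries, and 4 of the 5 granulosa markers tested rose (Hsd17b1, Nr5a2, Cyp19a1 and Fshr), although the summed level of that list, nearly all Inha, was 38800 to 52600 and 34900 to 51400 CPM. None of the oocyte (10 tested), theca and stroma (9), endothelial (2) or immune (2) markers was called over all libraries by edgeR. Over all genes tested, 4.35% were called higher and 6.25% lower. Within batch 1, where Pde7b was called, 2 of 9 theca and stroma markers were lower, Col1a1 at -1.20 and Col1a2 at -1.28 on the log2 scale (edgeR adjusted p = 0.027 and 0.0442), named after their values were seen. Of all 9423 genes tested in batch 1, 2.94% were called higher and 3.79% lower. The median of the theca and stroma list was -0.97 in batch 1 and 0.57 in batch 2. The summed levels in Control and Tyrphostin libraries were 268 to 2160 and 273 to 3070 CPM for theca and stroma, 8.51 to 88.4 and 8.73 to 32.8 CPM for endothelial and 18.6 to 460 and 19.0 to 850 CPM for immune markers. Tyrphostin 5 held the highest theca and stroma (3070 CPM) and immune (850 CPM) sums. Without Tyrphostin 5 the log2 fold change of Pde7b was 1.47 and that of Pde10a 0.60. The part of the ovulatory, granulosa, theca and stroma markers in the rise of Pde7b and Pde10a was not tested.

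Across the 17 libraries, after removal of the batch means, the members fell into 2 sets by correlation of log2 CPM. Pde10a and Pde8a correlated with r = 0.73, Pde7b with Pde10a with r = 0.56 and with Pde8a with r = 0.53, and Pde4b with Pde4d with r = 0.61. Between the sets r ran from -0.32 to -0.01. The points share libraries, treatment and depth, so these values are descriptions. Only batch means were removed, so the difference between the groups is part of r. Fold changes of like sign in the genes below thus follow in part from how they were picked. By the same measure the genes most like Pde7b were Ccng1 (r = 0.917), Rnf34 (0.886), Ptgfr (0.876), Galnt11 (0.87) and Eif4a2 (0.861). Their log2 fold changes were 1.21, 0.64, 1.26, 0.86 and 0.50, and Eif4a2 was not called (edgeR adjusted p = 0.0547). The genes most like Pde4d were Gem (r = 0.801), Efl1 (0.791), Zfp462 (0.783), Adgre5 (0.769) and Pim1 (0.765), with log2 fold changes of -0.91, -0.21, -1.27, -0.83 and -0.89, of which those of Efl1 and Adgre5 did not pass the test (edgeR adjusted p = 0.575 and 0.057).

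The other 16 phosphodiesterase symbols were mostly near the floor, with 4 tested and 0 called by edgeR, DESeq2 or limma-voom, and 2 higher at an unadjusted p under 0.05. Their median log2 fold change was 0.53, against 0 for all genes. Pde7a, the close relative of Pde7b, averaged 3.22 CPM ± 1.27 (SD, n = 11) in Control libraries and 5.07 CPM ± 2.30 (SD, n = 6) in Tyrphostin libraries, for a log2 difference of 0.67 ± 0.30 (SE; edgeR adjusted p = 0.175). The calcium-activated Pde1a, which takes both cyclic nucleotides, had a log2 difference of 0.41 ± 0.24 (SE; edgeR adjusted p = 0.317), and the cyclic GMP enzyme Pde5a of 0.36 ± 0.30 (SE; edgeR adjusted p = 0.517). Pde6d had a value of 0.65 ± 0.28 (SE; edgeR adjusted p = 0.149). Pde8b, the relative of Pde8a, had at most 7 counts and Pde4c at most 4.

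Genes that make cyclic AMP were little represented. Of 10 adenylyl cyclases 3 were tested and 0 called, with 0 at an unadjusted p under 0.05 and 0 by DESeq2 or limma-voom. Adcy3 was at 10.3 CPM ± 3.94 (SD, n = 11) and 9.40 CPM ± 3.38 (SD, n = 6). The log2 fold changes were -0.13 ± 0.27 for Adcy3, -0.19 ± 0.31 for Adcy6 and 0.52 ± 0.60 for Adcy7 (SE), with a median of -0.13.

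Of 15 receptor and G protein genes 10 were tested, with 3 called, against 10.6% of all 9603 genes tested (4.35% higher, 6.25% lower). Lhcgr and Fshr, the gonadotropin receptors, were higher with log2 fold changes of 1.02 ± 0.24 and 0.83 ± 0.25 (SE; edgeR adjusted p = 0.00765 and 0.0344), and Adcyap1r1, a receptor for PACAP that raises cyclic AMP, was lower at -2.48 ± 0.49 (SE; edgeR adjusted p = 0.00155). The other 7 were not called, and the median of the 10 was 0.165. The Fshr call was lost in 3 of 10 alternatives and without Control 1, 3 or 10 or Tyrphostin 1, 5 or 6 (edgeR adjusted p = 0.0529 to 0.187), and that of Lhcgr in 2 alternatives.

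Of 19 effector genes 15 were tested, with a median of -0.02 and 3 called, against 10.6% of all genes tested. Prkar2b, a regulatory subunit of protein kinase A, was higher at 2.53 ± 0.38 (SE, log2; edgeR adjusted p = 0.000263) and Prkar1b, another regulatory subunit, lower at -1.23 ± 0.21 (SE; edgeR adjusted p = 0.000419). Pkia, an inhibitor of the kinase, was higher at 0.81 ± 0.24 (SE; edgeR adjusted p = 0.0288), a call lost in 2 of 10 alternatives and without Tyrphostin 2 or 5 (edgeR adjusted p = 0.0842 and 0.101). The other 12 were not called.

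Among 20 anchors and partners of phosphodiesterases 15 were tested and had a median of -0.12, with 3 called, against 10.6% of all genes tested. Akap1, an anchor of protein kinase A at mitochondria, was higher at 1.40 ± 0.41 (SE, log2; edgeR adjusted p = 0.0318). Mapk3, which encodes ERK1, and Ywhaz, an adaptor that binds phosphorylated proteins, were lower at -0.96 ± 0.27 and -0.78 ± 0.19 (SE; edgeR adjusted p = 0.0248 and 0.00809). The Akap1 and Mapk3 calls were lost in 5 and 4 of 10 alternatives, that of Ywhaz in 1. Omission of Tyrphostin 3 or 6 ended the call of Akap1 (edgeR adjusted p = 0.108 and 0.112), and omission of Tyrphostin 1, 3 or 6 that of Mapk3 (0.0783, 0.0677 and 0.0564).

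On the cyclic GMP side 8 of 10 genes were tested, with a median of 0.16 and 3 called, against 10.6% of all genes tested. Nppc, the CNP ligand that keeps cyclic GMP high in the follicle, was higher at 0.96 ± 0.24 (SE, log2; edgeR adjusted p = 0.0119). Npr1 and Prkg2, a natriuretic peptide receptor and a cyclic GMP dependent kinase, were lower at -1.18 ± 0.23 and -1.46 ± 0.43 (SE; edgeR adjusted p = 0.00173 and 0.0286). The Prkg2 call was lost in 3 of 10 alternatives and without Control 1, 4 or 8 or Tyrphostin 1, 2, 4, 5 or 6 (edgeR adjusted p = 0.0509 to 0.0616), that of Nppc in 2 alternatives. Calls of Prkar2b, Prkar1b, Adcyap1r1 and Npr1 held in every alternative that gave them an adjusted p and in all 17 omissions.

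**Figure D4:**
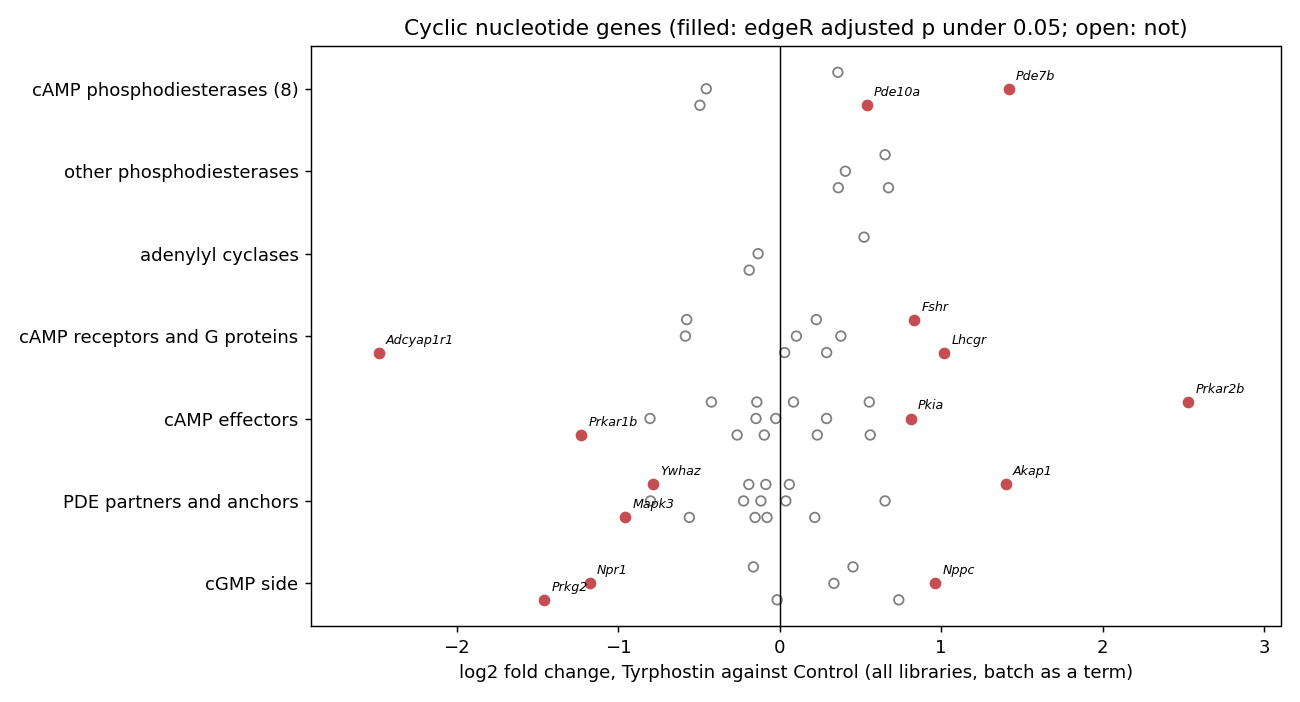
Log2 fold change of Tyrphostin against Control libraries (horizontal axis) for the tested genes of 7 lists, 1 point per gene; filled points have an edgeR adjusted p under 0.05 and are named. Of the 5 tested cyclic AMP phosphodiesterases Pde7b (1.42) and Pde10a (0.54) are filled, and the lists of other phosphodiesterases and of adenylyl cyclases have no filled point; Pde6d is in 2 lists and is drawn in both.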

How the data were processed

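Per the labels' protocols, Smart-Seq2 libraries, which carry no molecular identifiers, were prepared from bead-purified RNA. The deposited values are raw counts for each gene symbol. The submitters' processing notes name STAR, HTSeq and GRCm38, without versions or roles; annotation and strandedness are not given in the sources used here. Counts were tested with edgeR 4.0.16 (R 4.3.3): filterByExpr, TMM, quasi-likelihood fit with robust estimation, Benjamini-Hochberg adjustment over all genes tested, threshold 0.05. The SE is the log2 fold change divided by the square root of F. Alternatives were other scalings and filters, DESeq2 1.42.0, limma-voom (limma 3.58.1), no batch term and Control libraries summed by set. Further ones were a block on replicate number and each library left out. The block used only Control 1 to 6 and Tyrphostin 1 to 6, or numbers 1 to 3 of both groups within batch 1. Exon lengths came from GENCODE M21. No libraries agreed within sampling noise: over 31 pairs of the same group and batch, chi-square divided by its degrees of freedom ran from 11.8 to 84.1. Floors of 3 counts cover counting error only. The code was tested on simulated counts. All 8 members are named, as are list genes past the threshold and the 5 genes most correlated with the most significant higher and lower member. Members and lists were chosen with earlier results of these data known.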

Additional observations from a re-analysis of the deposited data

Results flagged for a closer look

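A library far from the rest was searched for in 18 groups of 5 or 6 libraries (total counts and the CPM of the 5 members tested), and 2 groups had one; chance gives about 5% of groups. The total of Control 6 was 1820545 counts, while the remaining 5 batch 1 Controls had 3807300 to 4834875. With Control 6 left out, the log2 fold change of Pde10a was 0.52 with an edgeR adjusted p of 0.0518, in place of 0.0403. Pde4b was at 121 CPM in Tyrphostin 2, against 41.5 to 59.4 CPM in the other Tyrphostin libraries, and without that library its log2 fold change was -0.75 (edgeR adjusted p = 0.068). The cause was not tested for either library.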

How the results depend on the processing

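Pde7b kept its direction and its call over all libraries in all 10 alternatives and 17 omissions. The count of members called higher over all libraries, 2, was 1 (Pde7b) with no filter, with no batch term, with Control libraries summed by set and with the replicate block, and 1 to 2 over the omissions; Pde10a was the member lost, and the cause was not tested. Within batch 1 the count of 1 was 0 to 1 over the omissions, and 0 with Control 1 to 3 and Tyrphostin 1 to 3 alone and no block, an alternative added after seeing the data. Within batch 2 the count of 0 was 1 with no filter and 0 to 1 over the omissions. Between batches of Control libraries the count of members called lower, 1, was 1 to 2 over the omissions. The interaction of Pde10a, 0.06, changed sign with total counts (-0.0249) and with no filter (-0.0171) and ran from -0.27 (without Tyrphostin 4) to 0.31 over the omissions; that of Pde4b, -0.33, ran from -0.58 to 0.19 (without Tyrphostin 2). With the longest transcript, the share of Pde8a was 7.95% and 8.88%, of Pde4d 9.95% and 6.30% and of Pde3a in Tyrphostin libraries 0.107%; without Pde6d, Pde6g and Pde6h, an alternative added after seeing the data, Pde8a held 18.6% in Tyrphostin libraries. Total-count scaling moved the median of all genes from 0 to 0.145 and the calls from 418 higher and 600 lower to 715 and 396; within batch 1 they moved from 277 and 357 to 459 and 264, within batch 2 from 19 and 42 to 26 and 29, and between Control batches from 485 and 452 to 840 and 270. The higher or the lower count also moved by over 1.5 times in other settings. Over all libraries the counts were 237 and 382 with no batch term, 265 and 443 with Control libraries summed by set and 260 and 448 without Tyrphostin 1. With the replicate block, on Control 1 to 6 and Tyrphostin 1 to 6 only, they were 259 and 365. Within batch 1 they were 366 and 558 by DESeq2, 508 and 395 with no filter, 170 and 224 without Tyrphostin 2 and 146 and 243 with 3 libraries a group. Within batch 2 they were 87 and 216 by DESeq2, 69 and 153 with no filter, 83 and 138 without Control 7, and 5 to 13 higher and 6 to 29 lower without 1 of Control 8, 9, 10 and 11 and Tyrphostin 4, 5 and 6. Between Control batches they were 734 and 739 by DESeq2, 321 and 335 without Control 2 and 323 and 314 without Control 3, and for the interaction, 0 and 0, they were 17 and 62 with no filter.

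Control and Tyrphostin libraries share numbers 1 to 6 in the labels, but numbers 4 to 6 cross batches. For this reason the numbers were not taken to pair samples, and whether numbers 1 to 3 do is not stated. Deviations from the means of group and batch correlated between same-numbered libraries with r = 0.323, 0.076, 0.053, 0.099, 0.031 and 0.113. Among numbers 1 to 3 each library correlated best with its own number except Control 2, at 0.126 with Tyrphostin 3 and 0.0942 with Tyrphostin 2. The replicate block was fitted on Control 1 to 6 and Tyrphostin 1 to 6 only, so it left out every batch 2 Control library. In that fit the log2 fold change was 1.14 for Pde7b (edgeR adjusted p = 0.0268) and 0.40 for Pde10a (edgeR adjusted p = 0.371). The calls of Fshr, Pkia, Akap1, Mapk3, Ywhaz, Nppc and Prkg2 were also lost there (edgeR adjusted p = 0.09 to 0.287). Whether the block or the smaller set of libraries ended these calls was not tested. Within batch 1, where numbers 1 to 3 were blocked, Pde7b was at 1.15 (edgeR adjusted p = 0.00996). Depth limits Pde3a, Pde3b and Pde4a, which had at most 14 counts in any library.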
